A study of Mus musculus with 4 samples.

Results

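The genes described here encode 10 proteins of the nuclear lamina and the inner nuclear membrane, the structures that DamID with lamin B1 probes from the inside. They are *Lbr*, the lamin genes *Lmna*, *Lmnb1* and *Lmnb2*, the LEM-domain genes *Emd*, *Tmpo*, *Lemd2* and *Lemd3*, and the SUN genes *Sun1* and *Sun2*. They were taken by their symbol in the mm9 annotation, which held all 10 of them among 22367 protein-coding genes. For each gene, the overlap of its span with the lists of lamina-associated domains (LADs) and the distance to the nearest LAD were measured in both genotypes.

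DamID marks DNA close to the nuclear envelope (NE) through a bacterial methylase, Dam, that is joined to lamin B1 and adds a methyl group to adenines in the letters GATC, while unfused Dam is the control for accessibility. Primary hepatocytes came from WT (*Tm7sf2*+/+) and KO (*Tm7sf2*-/-) mice on a C57BL/6 background, aged 12 to 16 weeks, and lentiviral vectors brought Dam-LaminB1 or Dam alone into the cells over 24 h. *Tm7sf2*, also called NET47, encodes a NE transmembrane protein and sterol reductase, and both genotypes received the same 2 constructs. The 4 libraries (WT Dam-LaminB1, WT Dam only, KO Dam-LaminB1 and KO Dam only) each held DNA of 4 mice in a pool, so that no value here has an error between animals and no test between genotypes was possible. The hepatocytes were isolated and kept in culture, so that only cells that took up the vector were read.

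The deposited lists hold the positions of 8107 WT LADs, covering 55.4% of the genome, and of 16076 KO LADs, covering 56.1%. They give neither a signal nor a read number per region, so the depth behind a single LAD is unknown. By the study's own account, the KO libraries were sequenced less deeply than the WT libraries. Stretches of at least 10 kb in 1 LAD list and outside the other form the differential regions (DRs). A gene that overlapped a KO-only DR by at least 1 base was called IP, for a change from the interior to the periphery in the KO. The opposite was called PI, a gene that overlapped both kinds of DR was set apart as ambiguous, a gene in LADs of both genotypes without a DR was called PP, and any other gene was called II, for interior in both.

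The nuclear lamina is a meshwork of A-type and B-type lamins under the inner nuclear membrane, and it holds much of the silent chromatin at the edge of the nucleus. LBR and lamin A/C are known as the main tethers of peripheral heterochromatin. The LEM-domain proteins bind chromatin through the small protein BAF, and the SUN proteins connect the lamina to the cytoskeleton across both membranes. LBR is also the closest relative of TM7SF2, with which it shares the sterol reductase domain.

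In WT hepatocytes, 0 of the 10 genes lay in a LAD. Among all protein-coding genes, 30.4% overlapped a WT LAD. In the KO, *Lbr*, *Lmna* and *Lmnb1* overlapped a LAD, which is 3 of 10 genes against 41.7% of all genes. All of these 3 were IP, a class that held 17.1% of all genes. None of the 10 genes was PI, a class of 5.43% of all genes. None could be, because WT-only DRs are parts of WT LADs and the 10 genes lay outside these. The other 7 genes were II, compared with 56.6% of all genes. Since the 10 genes all started outside WT LADs, the closer background is the 15562 genes outside WT LADs, of which 19.6% overlapped a KO LAD. With 10 genes, 3 of 10 and 19.6% differ by about 1 gene.

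**Figure D1:**
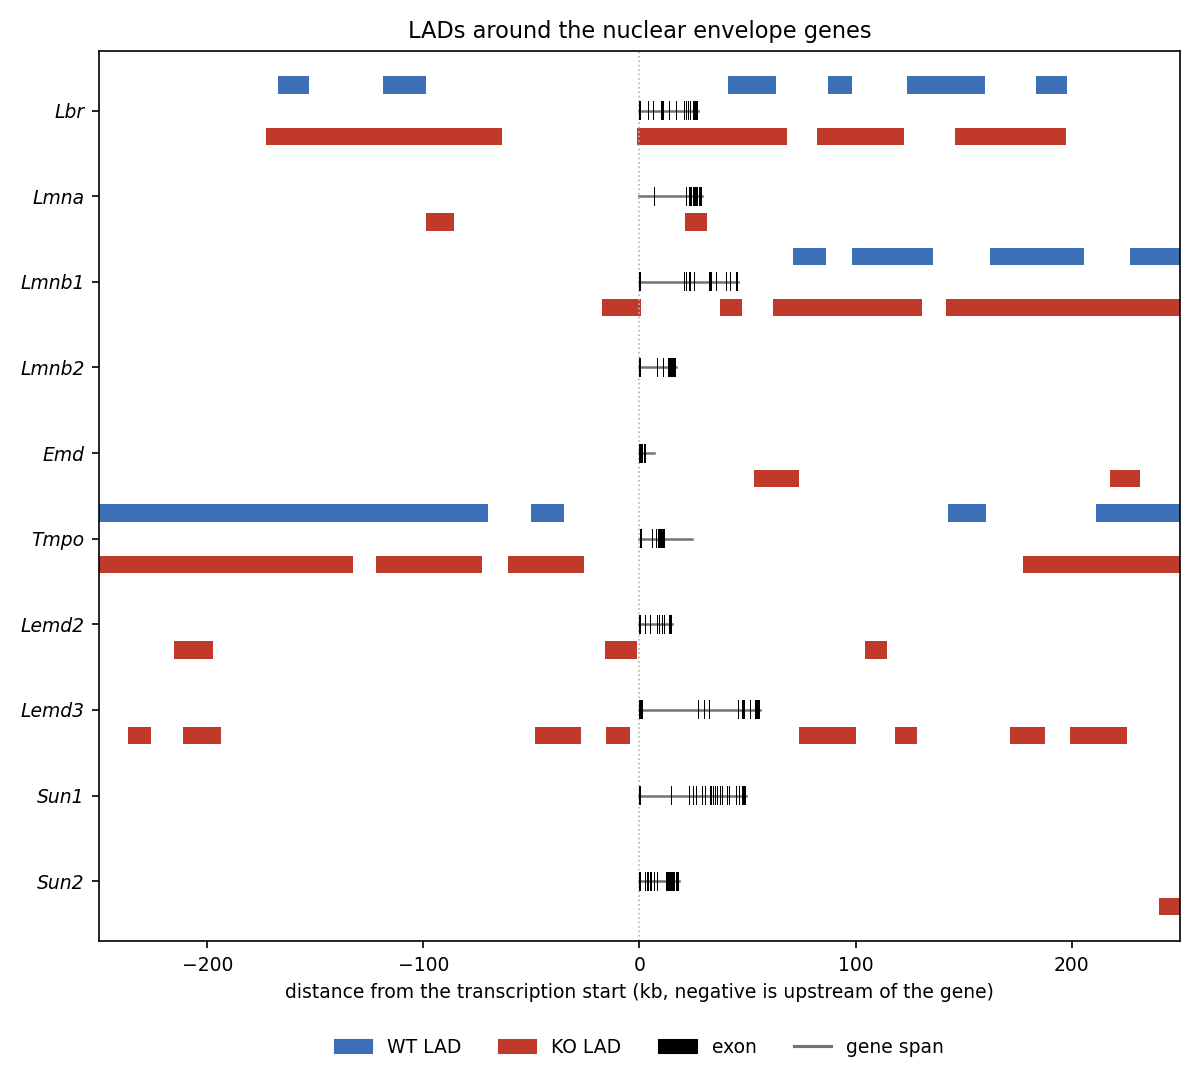
LADs of WT (blue) and KO (red) hepatocytes within 250 kb of the transcription start of each of the 10 genes, drawn to scale and in the direction of transcription, with distance in kb on the x axis and 1 gene per row. KO LADs lie on *Lbr*, *Lmna* and *Lmnb1*, while *Lmnb2* and *Sun1* have no LAD of either genotype in the window.

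*Lbr* was the gene that the KO LADs covered most. It encodes the lamin B receptor, an inner nuclear membrane protein that binds B-type lamins and HP1, and it lies on the minus strand at chr1:183745447-183772532. In WT, 0% of its 27.1 kb was in a LAD and the nearest LAD began 13.8 kb past its 3′ end. In the KO, 100% of the gene and 14 of its 14 exons were in a LAD of 69.7 kb. That KO LAD ran 1.21 kb upstream of the transcription start, so that start, coding exons and 3′ end all fell inside it.

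The WT LAD next to *Lbr* lay whole within the KO LAD. It spans chr1:183709382-183731653, which is 22.3 kb, and the KO LAD spans chr1:183704080-183773739. The gene was therefore reached by a longer LAD at a place that was already a LAD in WT, and the added stretch on the gene side was a KO-only DR of 42.1 kb. On the 5′ side the nearest WT LAD was 98.6 kb away and the next KO LAD 63.6 kb away. DamID reads chromatin only at GATC sites, and 95 of them lie in the DR and 62 in the gene. The 40 bases around the 3 borders that separate the WT and KO calls at *Lbr* are shown because they mark where the calls end, read on the plus strand of mm9 with GATC in capitals.
end of the WT LAD, chr1:183731634-183731673: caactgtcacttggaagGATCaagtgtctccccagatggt
start of the KO LAD, chr1:183704060-183704099: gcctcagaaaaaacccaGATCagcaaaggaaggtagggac
end of the KO LAD, chr1:183773720-183773759: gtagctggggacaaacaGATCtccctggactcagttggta

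At each of these 3 borders the GATC sits in the middle of the window, that is, the call ended at a site that *DpnI* cuts when methylated. The same held for 98.9% of WT and 99.5% of KO LAD borders in the whole lists. The *Lbr* promoter is printed because it was the only one inside a LAD among the promoters at hand. It covers 250 bases before the start and 50 after it on the minus strand, as RefSeq gives it for GRCm38.p6, and its sequence has a single exact match in mm9 at chr1:183772483-183772782. All of it was in the KO LAD and 0% in a WT LAD. It holds 1 GATC site, in capitals.
*Lbr* promoter: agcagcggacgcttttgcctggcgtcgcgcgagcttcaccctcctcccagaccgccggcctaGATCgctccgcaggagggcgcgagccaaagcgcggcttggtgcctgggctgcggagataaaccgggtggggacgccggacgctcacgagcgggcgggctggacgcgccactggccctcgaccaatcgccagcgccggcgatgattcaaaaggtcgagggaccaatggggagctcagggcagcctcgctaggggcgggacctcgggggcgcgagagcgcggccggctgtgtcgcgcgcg

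The letters GATC, which read the same on both strands, occur in 48.0% of 32851 RefSeq promoters of this length. RefSeq entries were found for 8 of the 10 genes, with 12 promoters in all, and *Lmnb1* and *Lemd2* had none in the table used. GATC occurred in 6 of these 12 promoters. The other 11 promoters lay outside the LADs of both genotypes. The smallest distances to a KO LAD among them were those of *Lemd3*, at 3.99 kb, and the downstream promoter of *Lmna*, at 4.24 kb.

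Genes on both sides of *Lbr* differed in their calls. *Dnahc14*, which encodes a dynein heavy chain and lies 45.6 kb past the 3′ end of *Lbr*, was also IP, with 36.2% of its span in LADs in WT and 69.0% in the KO. *Gm5533*, 9.21 kb upstream of *Lbr*, was II and lay outside the KO LAD. The call on *Dnahc14* came from another KO LAD, of 40.3 kb, so that the KO LAD on *Lbr* reached neither neighbor. In the 1 Mb around the *Lbr* start, LADs covered 14.7% in WT and 37.3% in the KO, and in the surrounding 2 Mb 7.36% and 25.9%.

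The A-type lamin gene *Lmna* was IP with a different layout. It encodes lamins A and C and lies on the minus strand at chr3:88285070-88313878. The nearest WT LAD was 1005 kb away, and 86.1% of all genes were nearer to a WT LAD than *Lmna*. A KO LAD of 10.3 kb at chr3:88282688-88292943 covered 7.87 kb of the gene, or 27.3% of its span. This LAD overlapped no WT LAD, held 20 GATC sites, and was close to the minimum length of the lists, which is 10002 bases for KO LADs.

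Within *Lmna*, the KO LAD held exons 2 to 12 of 12 exons, counted in the coding transcript with the largest exon length, and ended in intron 1. Exon 1, at chr3:88306670-88307257, was outside. The outermost annotated start was 20.9 kb from the KO LAD, and the RefSeq promoters of *Lmna* were 14.3 kb and 4.24 kb from it. The LAD call thus took in the 3′ part of the gene and neither RefSeq promoter. Both ends of the KO LAD are shown, on the plus strand of mm9 with GATC in capitals, since they bound the whole call on *Lmna*, and the additional GATC in the first window lies inside the LAD.
start of the KO LAD, chr3:88282668-88282707: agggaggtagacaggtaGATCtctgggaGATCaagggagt
end of the KO LAD, in intron 1, chr3:88292924-88292963: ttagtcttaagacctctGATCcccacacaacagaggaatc

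The 3′ neighbor of *Lmna* lay outside LADs in both genotypes. This gene, *Sema4a*, a semaphorin gene 20.0 kb away, was 959 kb from a WT LAD and 17.6 kb from a KO LAD. Within 500 kb of the *Lmna* start there were 0 WT LADs and 2 KO LADs, each under 20 kb. LADs covered 0% of this 1 Mb in WT and 2.29% in the KO, which makes the call on *Lmna* a single short island in a region of 37 genes within 500 kb. Without LADs under 20 kb, *Lmna* was II at 997 kb from a KO LAD, and it was also II when only the transcription start was counted.

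*Lmnb1*, which encodes the B-type lamin used as the DamID bait, lies on the plus strand at chr18:56867467-56913078. In WT the nearest LAD was 25.5 kb past its 3′ end. In the KO, 2 separate LADs touched the gene, and together they covered 9.13 kb, or 20.0% of its 45.6 kb. The first, of 18049 bases, covered the transcription start, exon 1 and the first 0.875 kb, and ended in intron 1. The second, of 10.1 kb, began in intron 8 and covered exons 9, 10 and 11 of 11 exons, with 8.26 kb of the gene. Neither overlapped a WT LAD, so that both gene ends were in KO-only DRs while exons 2 to 8 were in no LAD. Both KO LADs are under 20 kb, and without LADs of that length *Lmnb1* was II, at 52.8 kb from a WT LAD and 15959 bases from a KO LAD. The vector itself carries a lamin B1 coding sequence, and its part in the calls on *Lmnb1* exons was not tested. The lists hold no reads, so vector-derived reads on these exons could not be looked for in either genotype.

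Unlike *Lmna*, *Lmnb1* lay in LAD-rich surroundings in both genotypes. LADs covered 38.8% of the surrounding 1 Mb in WT and 52.9% in the KO, with 8 WT and 7 KO LADs in that window. Another KO LAD, of 69.3 kb, began 15959 bases past the 3′ end and contained the WT LAD nearest on that side. The 3′ neighbor *March3*, a ubiquitin ligase gene 8.29 kb away, was IP with 58.4% of its span in LADs in WT and 88.5% in the KO. On the 5′ side, *1700065I17Rik*, 113 kb away, was II.

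**Figure D2:**
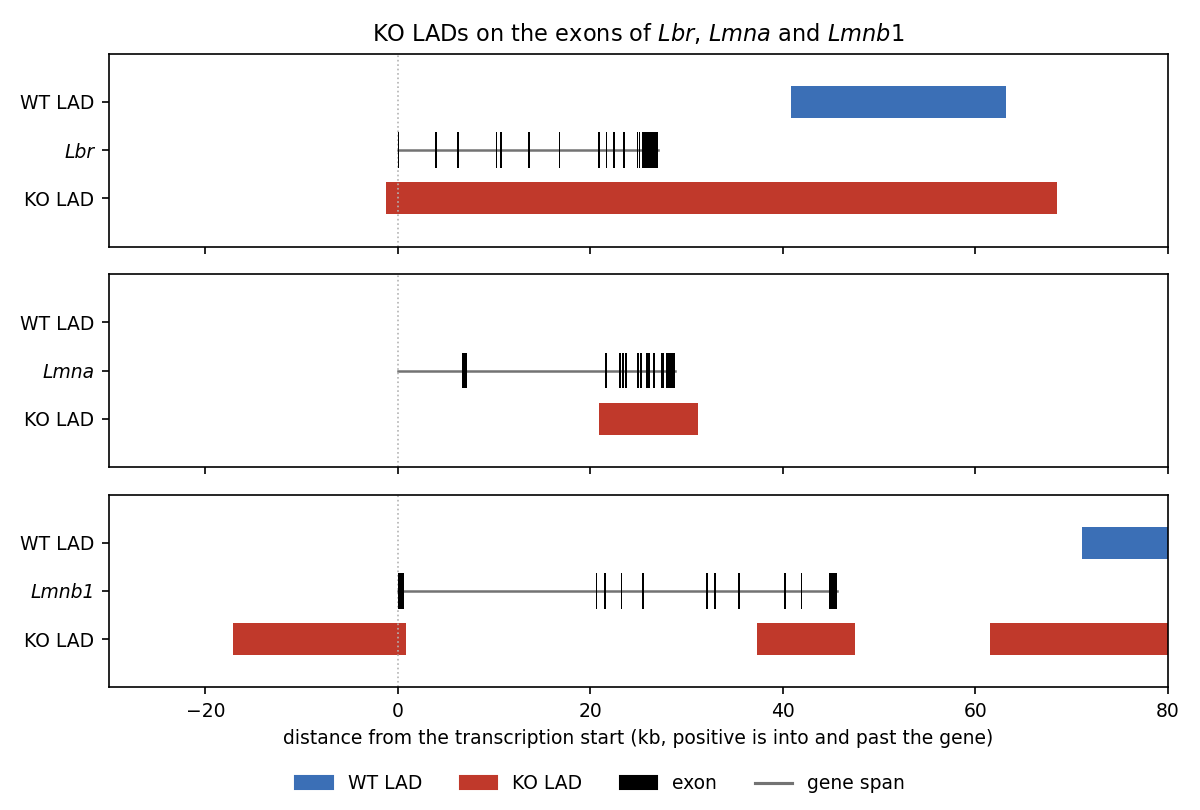
Exons (black) and gene span (gray line) of *Lbr*, *Lmna* and *Lmnb1*, with WT LADs (blue) above and KO LADs (red) below each gene, against the distance from the transcription start in kb. The KO LAD contains all 14 exons of *Lbr*, exons 2 to 12 of *Lmna*, and only the first and the last 3 exons of *Lmnb1*.

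The B-type lamin gene *Lmnb2* was II and far from LADs in both genotypes. Located at chr10:80363948-80380990, it was 743 kb from the nearest WT LAD and 657 kb from the nearest KO LAD, and LADs covered 0% of the surrounding 1 Mb in either. Of all genes, 96.1% were nearer to a KO LAD. In the surrounding 2 Mb, LADs covered 10.3% in WT and 12.6% in the KO. The lamin genes therefore held different positions, with *Lmnb1* in LAD-rich and *Lmna* and *Lmnb2* in LAD-poor surroundings in WT.

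The 4 LEM-domain genes were II, and KO LADs came close to *Lemd2* and *Lemd3* without overlapping them. *Lemd2*, which encodes an inner nuclear membrane protein that works with the membrane-sealing ESCRT machinery at the reforming envelope, lies at chr17:27326546-27341383 on the minus strand. Its nearest WT LAD was 3654 kb away, farther than that of 99.0% of genes. In the KO a LAD of 14.9 kb began 0.974 kb upstream of its start. Without LADs under 20 kb the nearest KO LAD was 1656 kb away, and without those under 50 kb it was 3663 kb away, farther than the WT LAD. *Lemd3*, which encodes MAN1, an inhibitor of SMAD signaling, lies at chr10:120360469-120416388 on the minus strand. It was 762 kb from a WT LAD. In the KO it lay between 2 LADs, 1 of 11.2 kb that began 4.24 kb upstream of its start and 1 of 26.3 kb at 18.1 kb past its 3′ end. The borders that face these starts are shown, on the plus strand of mm9 with GATC in capitals, because they decide that *Lemd2* and *Lemd3* were called II and not IP.
start of the KO LAD upstream of *Lemd2*, chr17:27342338-27342377: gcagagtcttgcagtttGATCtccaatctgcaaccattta
start of the KO LAD upstream of *Lemd3*, chr10:120420610-120420649: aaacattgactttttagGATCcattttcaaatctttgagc

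The surroundings of *Lemd3* differed more between the lists than those of *Lemd2*. Within 500 kb of the *Lemd3* start there were 0 WT LADs and 13 KO LADs, and 13 of these 13 overlapped no WT LAD anywhere. They covered 28.6% of the 1 Mb, and 6 of them were under 20 kb. Counting 10 kb on either side of each gene, *Lemd2* and *Lemd3* were IP, as were 22.0% of all genes. The 3′ neighbor *Msrb3*, a methionine sulfoxide reductase gene, was IP with 0% of its span in LADs in WT and 39.6% in the KO, while the 5′ neighbor *Wif1*, which encodes a WNT inhibitor, was II at 6.26 kb from a KO LAD. Around *Lemd2* there were 3 KO LADs in 1 Mb, each under 20 kb, which covered 4.34%. Its 5′ neighbor *Grm4*, a glutamate receptor gene, was II at 2.42 kb from a KO LAD.

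For *Emd* and *Tmpo* the distances to the nearest LAD differed less between the genotypes than for *Lemd2* and *Lemd3*. *Emd*, the gene of emerin on the X chromosome (chrX:71500026-71506887), was 266 kb from a WT LAD and 46.2 kb from a KO LAD of 20.9 kb. LADs covered 13.5% of its surrounding 1 Mb in WT and 19.6% in the KO. *Tmpo*, which encodes the lamina-associated polypeptides 2, lies at chr10:90610316-90634759. It was 34.9 kb from a LAD in WT and 25.8 kb in the KO. Of the 10 genes it had the most LAD sequence around it, with 73.9% of the 1 Mb in WT and 75.2% in the KO, yet neither list placed a LAD on it. Its KO LAD on the 5′ side contained the WT LAD there and covered *Gm16484*, a small gene 56.2 kb from *Tmpo* that went from 0% to 100% in LADs and was IP.

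The SUN genes were far from LADs in WT. *Sun1* at chr5:139676591-139725794 was 645 kb from a WT LAD and 589 kb from a KO LAD, and its 1 Mb held no LAD of either genotype. *Sun2* at chr15:79554500-79572966 was 2782 kb from a WT LAD and 222 kb from a KO LAD of 13.9 kb. In its 1 Mb there were 0 WT LADs and 2 KO LADs, which covered 2.73%. The SUN genes and *Lmnb2* were the 3 members more than 200 kb from the LADs of both genotypes.

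**Figure D3:**
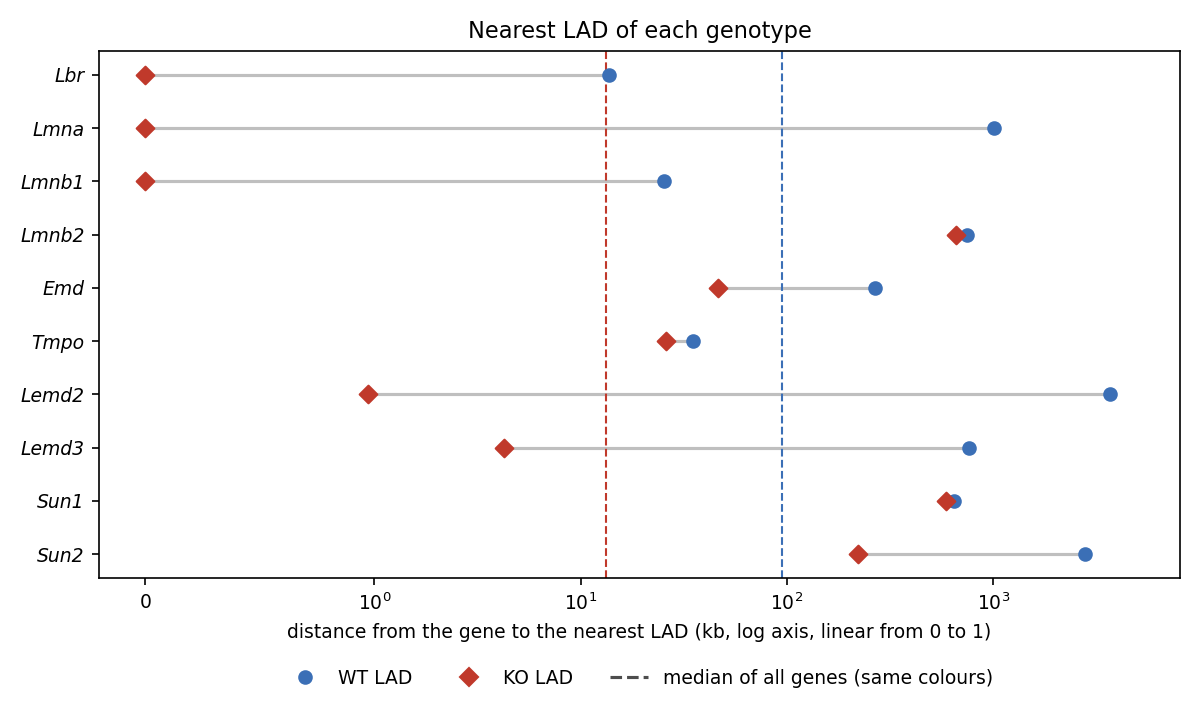
Distance from each of the 10 genes to the nearest WT LAD (blue circles) and the nearest KO LAD (red diamonds), in kb on an axis that is linear up to 1 kb and logarithmic above, with dashed lines at the medians of all protein-coding genes (95.0 kb for WT and 13.3 kb for KO). Every KO diamond lies to the left of its WT circle, with gaps from 9.08 kb at *Tmpo* to 3653 kb at *Lemd2*.

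The nearest KO LAD was closer than the nearest WT LAD for 10 of 10 genes. Among all genes this held for 60.4%, and among the genes outside WT LADs, which are the ones that can come closer, for 86.8%. The members are thus close to the background of genes outside WT LADs. With LADs under 20 kb left out, the KO LAD was closer for 9 of 10 genes and 55.7% of all genes. The exception was *Sun1*, at 645 kb in WT and 835 kb in the KO. With LADs under 50 kb left out, a setting added after seeing the data, the KO LAD was closer for 6 of 10 genes and 39.9% of all genes. The size of the difference ranged over the members from 9.08 kb at *Tmpo* and 13.8 kb at *Lbr* to 3653 kb at *Lemd2*. Their median distance was 694 kb in WT and 15.0 kb in the KO, against 307 kb and 71.6 kb for the genes outside WT LADs and 95.0 kb and 13.3 kb for all genes. Without LADs under 20 kb, the KO median was 351 kb for the 10 genes and 47.9 kb for all genes. At this setting the members were thus farther from KO LADs than all genes. The genes outside WT LADs were not measured at it.

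The KO LADs nearest to the 10 genes were mostly short and separate, at shares close to the background. For 8 of 10 genes, all but *Lbr* and *Tmpo*, the nearest KO LAD overlapped no WT LAD, compared with 75.7% of the genes outside WT LADs. For 6 of 10 it was under 20 kb, compared with 53.6%, and its median length was 15.2 kb, compared with 18.9 kb. In the other direction, the WT LAD nearest to 9 of 10 genes was overlapped by a KO LAD. The exception was *Sun1*, and the background was 79.1%. Over the whole genome, the KO list held 4287 LADs without a WT counterpart (median 18.4 kb) and the WT list held 995 without a KO counterpart (median 16.4 kb). The part of these separate short LADs, and of the lower depth of the KO libraries, in the distances was not tested.

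LAD coverage of the 1 Mb around the transcription start was higher in the KO for 8 of 10 genes, lower for 0, and 0% in both genotypes for *Lmnb2* and *Sun1*. Of all genes, 63.0% had more LAD bases in the KO, and this share was not counted for the genes outside WT LADs. The median change from WT to KO was 3.53 percentage points for the 10 genes. It was 3.10 percentage points for the genes outside WT LADs, close to that of the members. The largest differences were those of *Lemd3*, from 0% to 28.6%, and *Lbr*, from 14.7% to 37.3%. In the 2 Mb around the start, *Tmpo* and *Sun1* had fewer LAD bases in the KO, with 87.0% and 81.8% for *Tmpo* and 8.86% and 6.19% for *Sun1*, and the other 8 had more. In the 100 kb around the start, 6 genes had more in the KO and 4 had none in both. For the 100 kb and the 2 Mb, the share of all genes with more in the KO was not counted. The median coverage of the 2 Mb was 8.11% in WT and 19.3% in the KO for the 10 genes. It was 15.7% and 19.7% for the genes outside WT LADs. For the 100 kb, the medians of the 10 genes were 0% and 12.6%. Those of the genes outside WT LADs were 0% in both genotypes.

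**Figure D4:**
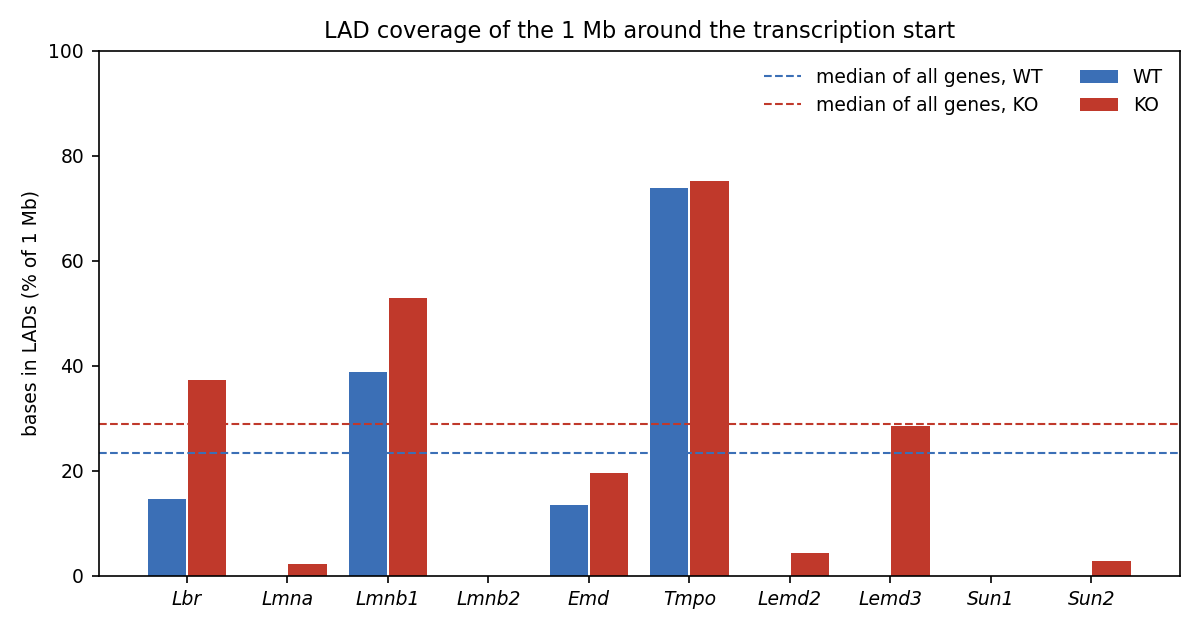
Share of the 1 Mb around the transcription start that lies in LADs, in percent, for WT (blue bars) and KO (red bars) and each of the 10 genes, with dashed lines at the medians of all genes (23.3% in WT and 28.8% in the KO). *Tmpo* and *Lmnb1* stand above both medians in both genotypes, *Lbr* crosses them between WT and KO, and *Lmnb2* and *Sun1* have no LAD sequence.

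The base composition of the IP genes overlapped that of the II genes, apart from the GATC density of *Lmnb1*. The density was 2.29 per kb in *Lbr*, 2.36 in *Lmna* and 2.70 in *Lmnb1*, and it ranged from 1.97 in *Lemd3* to 2.48 in *Emd* over the II genes, with a median of 2.41 over all genes. The G+C content was 45.3% in *Lbr*, 51.6% in *Lmna* and 45.2% in *Lmnb1*, within the range of the II genes from 41.6% in *Lemd3* to 56.5% in *Lemd2*. Gene density varied widely, from 6 protein-coding genes within 500 kb at *Tmpo* to 57 at *Lmnb2*, with the gene itself counted. *Tmpo*, *Lmnb1* and *Lbr*, with few neighbors, were those with a LAD within 50 kb in WT. *Lemd3*, with a count of 7 that includes itself, had its nearest WT LAD at 762 kb.

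A list of 64 other genes of the NE served for comparison, made up of nesprins and other LINC complex genes, further lamina and inner membrane proteins, prelamin processing enzymes, HP1 proteins, sterol reductases and nucleoporins. In this list 57 genes (89.1%) were II, 7 were IP and 0 were PI, against 56.6% II and 5.43% PI among all genes. Only 2 of the 64 genes overlapped a WT LAD, and a gene outside WT LADs cannot be PI. The IP share was 10.9%, against 17.1% of all genes. Among all genes outside WT LADs, the nearest KO LAD was closer than the nearest WT LAD for 86.8%. In the list, 2 of the 64 genes overlapped LADs of both genotypes and could not come closer. The KO LAD was closer for 56, close to the share of 86.8%, and farther for 6. *Zmpste24*, which encodes the protease that matures prelamin A, was among the latter, with 24.8 kb in WT and 146 kb in the KO. *Tm7sf2* itself was II, at 1629 kb from a WT LAD and 907 kb from a KO LAD. Neither the deletion in *Tm7sf2* nor the hepatocyte identity of the cells can be checked in lists of intervals.

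The 7 IP genes of that list fell into the LINC complex, the inner membrane proteins and the nucleoporins. *Syne1*, the gene of nesprin-1, had 73.5% of its span in LADs in WT and 84.7% in the KO, and *Sun3*, a testis SUN gene, had 91.6% and 100%. These were already LAD genes in WT, unlike the 10 genes described here. *Nemp2* was 38.2 kb from a WT LAD, and its whole span was in a KO LAD. Among the 31 nucleoporins, *Nup35* was IP over 98.2% of its span, *Nup93* over 11.9%, *Nup205* over 11.0% and *Nup37* over 7.51%. No gene of the prelamin processing enzymes (5 genes), the HP1 proteins (3 genes) or the sterol reductases (2 genes) was IP. With an IP share of 17.1% among all genes, groups this small cannot show a lack of IP genes.

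Measured by both distances on a log10 scale, the genes of the list most like *Lbr* were *Nup35*, *Nup37* and *Nemp2*, with differences of 0.101, 0.319 and 0.442 over the 2 lists. *Nup35* lay 17.4 kb from a WT LAD and *Nup37* 28.8 kb. Since the genes were picked by their distances, an overlap with a KO LAD as at *Lbr* is part of the choice. KO LADs covered 98.2% of *Nup35* and 7.51% of *Nup37*, against 100% of *Lbr*. *Nup35* and *Nemp2* were also like *Lbr* in that a KO LAD held the transcription start, whereas that of *Nup37* was outside.

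**Figure D5:**
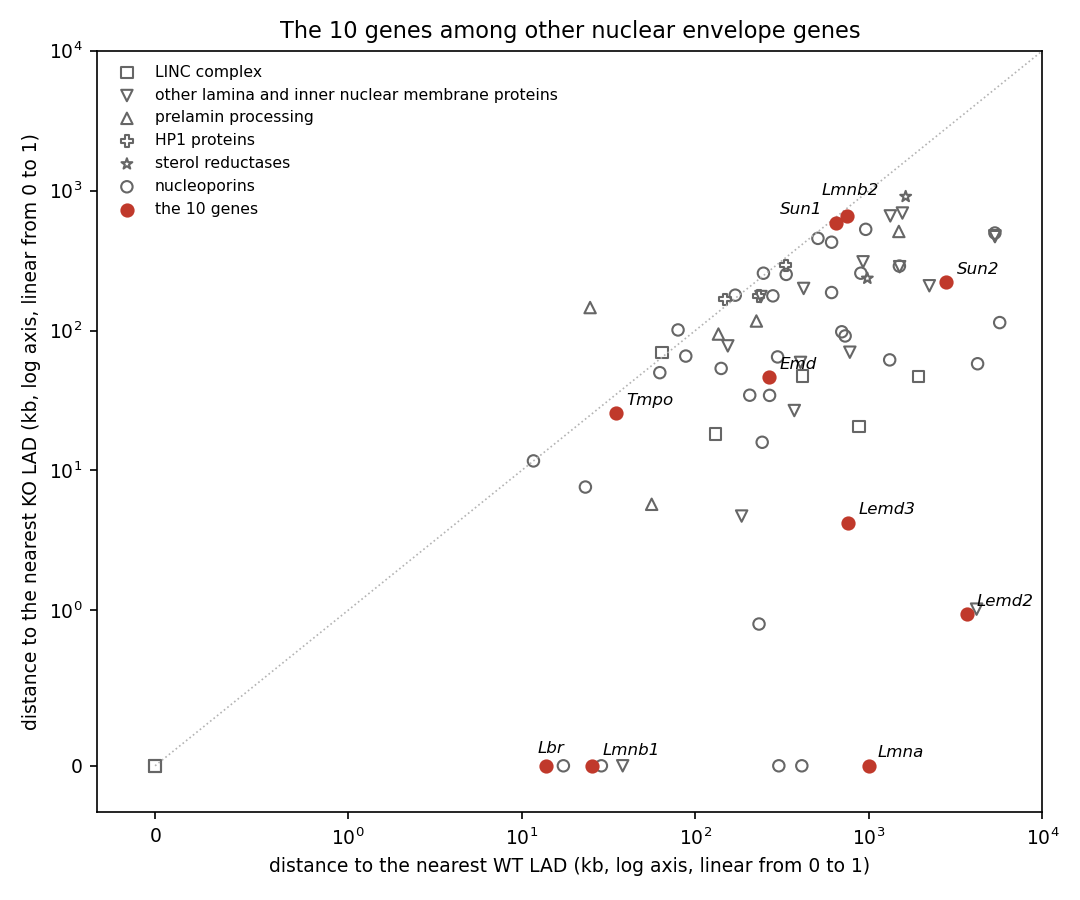
Distance to the nearest KO LAD against distance to the nearest WT LAD, both in kb on axes that are linear up to 1 kb and logarithmic above, for the 10 genes (red, labelled) and the 64 other NE genes (open symbols by group). Points below the dotted line of equal distance have the closer LAD in the KO, which holds for 10 of the 10 genes and 56 of the 64 others. Of the 64, 2 overlap LADs of both genotypes and cannot have a closer LAD in the KO. Among all genes outside WT LADs the share is 86.8%.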

How the data were processed

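DamID of lamin B1 was measured in 4 libraries, mapped to genotype and construct from the sample labels. The authors mapped the reads to mm9, expressed Dam-LaminB1 over Dam only as a log2 ratio for each *DpnI* fragment, and called LADs with DNAcopy at default settings. BWA and limma are named in the submitters' processing notes without a version. The deposited lists hold positions only, 2 of LADs and 2 of DRs, and no count or depth per sample. Subtracting the LAD lists with a minimum of 10000 bases gave back each of the 7787 WT-only DRs and 8208 KO-only DRs. That step and the distances were tested on simulated data (1520 cases, 0 errors).

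Gene spans and exons came from the GENCODE annotation of NCBIM37, the assembly of mm9, and positions are 1-based. An overlap of at least 1 base counted. Exons were taken from the coding transcript with the largest total exon length. Python 3.11.15, numpy 2.4.6, pysam 0.24.0, samtools 1.23.1 and matplotlib 3.10.9 were used. The 10 genes, the list of 64 genes and the settings were chosen with earlier results of these data known. Named were all 10 genes, *Tm7sf2*, the IP genes of the list, protein-coding neighbors with a LAD or DR between or on them, and the 3 genes most like *Lbr*. *Zmpste24* was named after its values were seen. Alternatives left out short LADs, joined LADs, or changed the part of the gene that counts. No value was tested, since each genotype has 1 library pair.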

Additional observations from a re-analysis of the deposited data

How the results depend on the processing

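Of 87 values under 8 alternatives, 67 stayed within a factor of 1.5 and 20 did not. Many of the 67 were counts of 0 that stayed 0, such as those of PI and ambiguous genes. The tally is therefore no measure of how stable the other values were. *Lbr* was IP under every alternative. With LADs under 20 kb left out, *Lmna* and *Lmnb1* became II, so that 1 gene overlapped a KO LAD, 1 a KO-only DR and 1 was IP, and the median KO distance was 351 kb (47.9 kb for all genes). With LADs under 50 kb left out, an alternative chosen after seeing the data, these 3 numbers were also 1, the median was 761 kb, and the KO LAD was nearer for 6 genes, while for 4 it was farther. Counting 10 kb on both sides, 5 genes overlapped a KO LAD, 5 a KO-only DR and 5 were IP (*Lemd2* and *Lemd3* were added), with a median of 7.90 kb. Taking the 100 kb centred on the gene, 3 genes overlapped a WT LAD and 7 a KO LAD, 6 overlapped a KO-only DR, 6 were IP, 3 were II and 1 was PP (*Tmpo*). From the transcription start alone the median KO distance was 23.4 kb and *Lmna* was II. The IP share of all genes ranged from 8.69% with LADs under 50 kb left out to 27.1% for the 100 kb centred on the gene. It was 13.4% with LADs under 20 kb left out and 22.0% with 10 kb on both sides. The share of all genes overlapping a WT or KO LAD was not counted under the alternatives. The overlap counts of 3 and 7 therefore have no background. No paired analysis was possible because each group has 1 library. Without signal or depth per region, the lists cannot show how far a gene was from a border's threshold.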
